A study of Rattus norvegicus with 6 samples.

Results

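The fibrosis-linked microRNAs (miRNAs) miR-21, miR-199a and miR-214 were examined in the left ventricle of the rat after a high-fat or a normal diet. Both annotated strands of each precursor were taken, namely rno-miR-21-5p, rno-miR-21-3p, rno-miR-199a-5p, rno-miR-199a-3p, rno-miR-214-3p and rno-miR-214-5p, which are 6 of the 758 rat miRNAs on the array. They were selected by name, through the miRNA names that the array files attach to each probe, and not by their values. The high-fat group is left ventricular myocardium from Wistar males kept on a high-fat diet for 20 weeks (3 samples), and the chow group is the same tissue from Wistar males kept on normal chow for 20 weeks (3 samples). The study compared the diets to find cardiac miRNAs that differ in diet-induced obesity. Whether the 3 samples within a diet are 3 animals was not stated in the labels, and the p-values therefore rest on a spread that may be partly technical.

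A miRNA precursor is a hairpin that is cut into a duplex, of which 1 strand, the guide, is usually kept in the silencing complex, while the other, the passenger, is mostly degraded. The guide lowers the output of messenger RNAs that pair with its seed, bases 2 to 8. miR-21-5p is abundant in fibroblasts and rises in failing and pressure-loaded hearts, and it lowers Spry1, which restrains growth factor signalling, and Pdcd4, which restrains translation. miR-199a and miR-214 are made from a shared transcript on the strand opposite to the dynamin gene Dnm3 and are typical of mesenchymal cells. miR-199a-5p lowers the hypoxia factor Hif1a and the deacetylase Sirt1, miR-199a-3p promotes proliferation of newborn rodent cardiomyocytes, and miR-214-3p lowers the sodium-calcium exchanger Ncx1 in mouse heart. The tissue was not sorted, so the signals come from all its cells, and a smaller number of fibroblasts and less of a miRNA per fibroblast cannot be told apart.

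The mature sequences, from RefSeq with its assembly GRCr8, were matched to the members by name, and the 6 strands carry 6 different seeds. The sequences of the probes themselves were not examined. Capitals mark the seed.
miR-21-5p: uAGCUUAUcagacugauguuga
miR-21-3p: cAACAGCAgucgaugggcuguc
miR-199a-5p: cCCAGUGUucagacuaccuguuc
miR-199a-3p: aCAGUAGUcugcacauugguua
miR-214-3p: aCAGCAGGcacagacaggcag
miR-214-5p: aGAGUUGUcaugugucu
Besides the members, 0 mature miRNAs of the RefSeq table shared one of these seeds. Of the 758 miRNAs on the array, 685 were found in that table by name, so the seeds of the others were not compared. In GRCr8, miR-21-5p lies at chr10:71902653-71902674 and miR-21-3p at chr10:71902615-71902636 on the minus strand, in the gene Mir21 next to Vmp1. On the plus strand, miR-199a-5p lies at chr13:77116255-77116277 and miR-199a-3p at chr13:77116294-77116315, in Mir199a2. The gene Mir214 follows 5310 bases further on, with miR-214-5p at chr13:77121656-77121672 and miR-214-3p at chr13:77121713-77121733. Both of these genes lie inside Dnm3, which is on the minus strand.

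The hairpins of miR-21 and miR-214 are shown because on these arrays 1 annotated strand of each was bright and the other annotated strand was at or near background. Capitals mark the mature strands.
Mir21: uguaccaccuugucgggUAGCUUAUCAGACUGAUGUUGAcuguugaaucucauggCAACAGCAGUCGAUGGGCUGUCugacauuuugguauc
Mir214: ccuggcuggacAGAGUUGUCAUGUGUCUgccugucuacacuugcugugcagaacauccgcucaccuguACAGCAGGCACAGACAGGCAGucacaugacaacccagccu
The bright strand was the 5p strand in Mir21 (bases 18 to 39 of the hairpin) and the 3p strand in Mir214 (bases 69 to 89). Most bases of the annotated miR-214-5p (bases 12 to 28) are complementary to the stretch just after miR-214-3p, and not to miR-214-3p itself.

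Each sample was hybridised to 1 single-colour Agilent array. A miRNA was tested where 3 or more of the 6 arrays showed it well above background, which held for 425 of 758. High-fat arrays tended to be brighter, and their 75th percentiles were 415 to 561 fluorescence units, against 359 to 424 on chow. Chow replicate 1 shared slide 1 with the 3 high-fat arrays, while slide 2 held the other chow arrays. The stringency ratio, computed by the software from spiked-in control RNAs, was 0.974 to 1.94 on high-fat and 3.44 to 4.19 on chow arrays, lowest on high-fat replicate 2. The part of these differences in the results below was not tested. Cardiomyocyte miRNAs (5 of 5) were well above background on all 6 arrays, as heart tissue would have them, while the liver miRNA miR-122-5p was so on 0. Markers of other tissues were not all absent, since the epithelial miR-141-3p and the neuronal miRNAs (2 of 2) were well above background on all 6.

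Among the members, 4 strands, namely miR-21-5p, both of miR-199a and miR-214-3p, were well above background on all 6 arrays. None of these 4 passed the adjusted test in either direction (limma, Benjamini-Hochberg adjustment over 425 miRNAs), where 0.235% of all tested miRNAs passed as higher with the high-fat diet and 0.235% as lower. At an unadjusted p under 0.05 there was 1 of the 4, miR-21-5p, where 4.24% of all tested miRNAs were higher at that level and 7.53% lower. The diets' arrays did not overlap for 2 of the 4, miR-21-5p and miR-199a-5p, both higher on the high-fat diet, as for 6.59% of all tested miRNAs, with another 10.6% lower. Signals are given below in fluorescence units as measured, or divided by the 75th percentile of their array and on the log2 scale, called scaled log2 signal.

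miR-21-5p was brighter on every high-fat array than on any chow array. Its brighter probe gave 3828, 5049 and 5399.6 fluorescence units on high-fat replicates 1, 2 and 3, against 2538, 3451 and 3159 on chow replicates 1, 2 and 3. After scaling these became log2 signals of 3.21, 3.25 and 3.27 on the high-fat diet and 2.82, 3.02 and 3.07 on chow. The high-fat arrays thus lay close together, while chow replicate 1 lay below the mean of the other chow arrays by a log2 signal difference of -0.23, a distance that 28% of tested miRNAs reached on that array.

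The scaled log2 signal of miR-21-5p averaged 3.24 ± 0.03 with the high-fat diet and 2.97 ± 0.13 with chow (SD, n = 3 each). That is a 1.20-fold higher signal on the high-fat diet, a log2 difference of 0.27 ± 0.10 SE with a 95% interval of 0.03 to 0.51, and it did not pass over all miRNAs (limma unadjusted p = 0.0331, adjusted p = 0.409). Over 24 alternative settings the unadjusted p of miR-21-5p ran from 0.0064 to 0.104 by limma, and in 6 of them it was not under 0.05, among them each one that left out a high-fat array or chow replicate 1. A 2-sided exact permutation test over the 20 assignments of the diets gave p = 0.1, the smallest this design allows. The scaled signal of miR-199a-5p reached the same p in that test. The second probe of miR-21-5p gave a similar log2 difference, 0.29 ± 0.10 SE. Without chow replicate 1, the log2 difference of miR-21-5p was 0.19 (limma adjusted p = 0.801). With slide as a block it was 0.42 (limma adjusted p = 0.282). Since slide 2 held chow arrays alone, this is also the difference within slide 1, where chow replicate 1 is the one chow array and the spread comes from the high-fat arrays only.

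**Figure D1:**
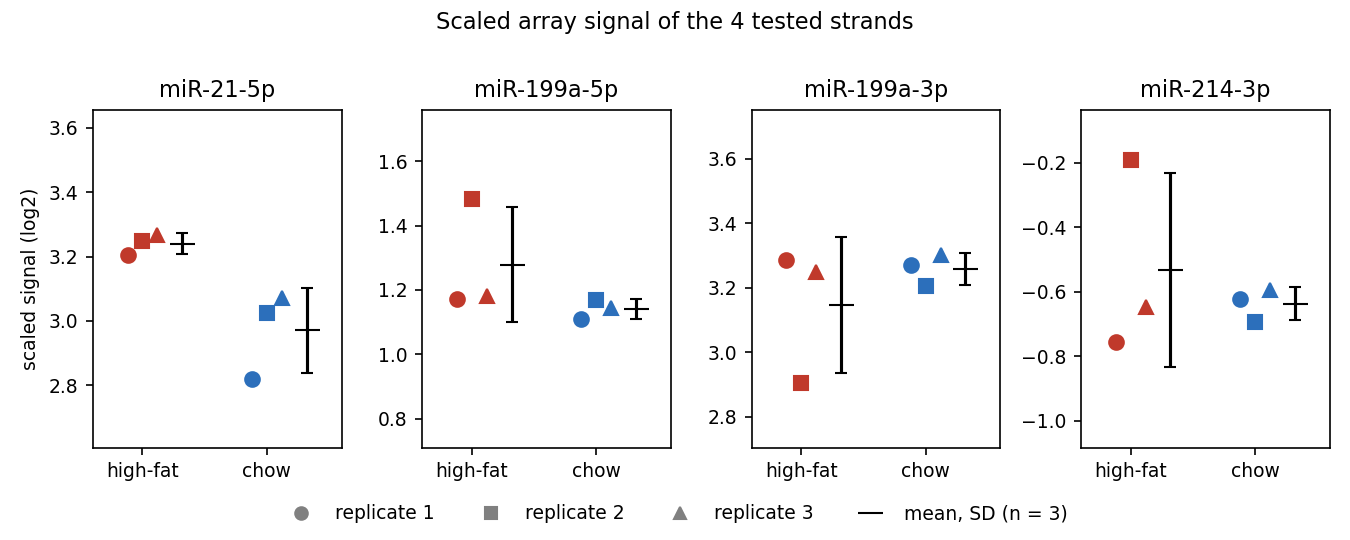
Scaled log2 signal of miR-21-5p, miR-199a-5p, miR-199a-3p and miR-214-3p on each array, high-fat left and chow right. Each symbol is 1 array, with its shape giving the replicate number, and the black bar is the mean with its SD (n = 3). The vertical axes cover the same span but start at different levels. For miR-21-5p the high-fat arrays lie at 3.21 to 3.27 and the chow arrays at 2.82 to 3.07, while in the other 3 panels high-fat replicate 2 lies apart from the rest.

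Markers of other cell types were summed on each array, and 0 of the cardiomyocyte, red blood cell, endothelial, smooth muscle, immune, neuronal and mesenchymal ones passed the limma test over all miRNAs. The summed scaled signal of 5 cardiomyocyte miRNAs was 315 to 404 on high-fat and 429 to 454 on chow arrays, so the ranges did not overlap. Red blood cell miRNAs (4 of 4 tested) summed to 15.3 to 21.5 on high-fat and 10.6 to 12.8 on chow arrays, also without overlap. The brighter miRNAs carry both sums. Singly, 3 of the 5 cardiomyocyte miRNAs were lower without overlap, as were 10.6% of all tested miRNAs, while miR-208a-3p overlapped (log2 difference -0.04). Of the 4 red blood cell miRNAs 2 were higher without overlap, as were 6.59% of all tested, while miR-486 overlapped (0.01). Among other mesenchymal miRNAs, miR-218a-5p, miR-10b-5p, miR-152-3p and miR-140-3p (4 of 4 tested), the sums were 4.53 to 5.41 on high-fat and 4.71 to 5.25 on chow arrays, which overlapped. Within that sum, which the brighter miRNAs carry, miR-218a-5p by itself was higher on every high-fat array than on any chow array, with a log2 difference of 0.19 ± 0.10 SE (limma adjusted p = 0.445). For immune cells (5 of 5 tested) they were 15.0 to 16.4 on high-fat and 15.3 to 16.5 on chow arrays, for smooth muscle (3 of 3) 52.6 to 58.2 on high-fat and 52.2 to 55.7 on chow, and for endothelium (2 of 2) 61.9 to 73.1 on high-fat and 68.8 to 72.3 on chow. Neuronal miRNAs (2 of 2) summed to 0.248 to 0.341 on high-fat and 0.282 to 0.377 on chow arrays. Of 5 epithelial and liver miRNAs 2 were tested. These, miR-200c-3p with miR-141-3p, summed to 0.409 to 0.420 on high-fat and 0.104 to 0.215 on chow arrays. Of the pair, miR-141-3p passed the limma test as higher on the high-fat diet. The other, miR-200c-3p, was detected on 3 high-fat arrays and 1 chow array, so its high-fat arrays alone sufficed for it to be tested. Which miRNAs enter this sum thus depends on the rule of 3 or more arrays. Both miR-200b-3p and miR-200a-3p, which were not tested, were detected on chow replicate 1 alone, and with all 5 the sums were 0.462 to 0.473 on high-fat and 0.157 to 0.495 on chow arrays, the 0.495 being that of chow replicate 1. Chow replicate 1, which was also the lowest array for miR-21-5p, thus stood apart in these miRNAs. The part of these in the difference of miR-21-5p was not tested.

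miR-21-3p, the passenger strand of miR-21, was dim throughout. Its brightest of 4 probes gave 8.90, 23.5 and 14.5 fluorescence units on high-fat replicates 1, 2 and 3, against 5.55, 8.48 and 5.92 on chow replicates 1, 2 and 3. Every high-fat array was above every chow array before scaling. High-fat arrays tended to be brighter, with a median log2 difference without scaling of 0.32 over all tested miRNAs. The share of all miRNAs in that order before scaling was not counted. The probe was well above background only on high-fat replicates 2 and 3 and on 0 chow arrays, so it was not tested. The software's own detection call for miR-21-3p, over all its probes, differed from this, since it marked 3 high-fat arrays and chow replicate 2 as detected. A second probe of miR-21-3p was also well above background on those same arrays, at 15.8 and 9.91 fluorescence units. The other probes were not well above background on any array, and gave 0.739 to 6.03 fluorescence units.

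On the scaled scale miR-21-3p averaged a log2 signal of -5.11 on high-fat and -5.76 on chow arrays, where the chow value is at or near the floor set for dim probes. Against the lowest level that counted as well above background on each chow array, the mean of the 3 high-fat arrays was 1.15-fold higher. The probe was well above background on 2 of these 3 only. That chow level is the lowest of any probe and no upper limit for this one, so the fold is not a lower bound. Without high-fat replicate 2 the high-fat mean, at a log2 signal of -5.41, was below that chow level of -5.31. The 1.15-fold thus rests on that array. The authors' deposited table lists miR-21-3p at log2 values of 1.87, 2.87 and -0.43 on high-fat replicates 1, 2 and 3 and at -2.85, 1.09 and -2.77 on chow replicates 1, 2 and 3. In that table high-fat replicate 3 is below chow replicate 2, so the diets overlap there.

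**Figure D2:**
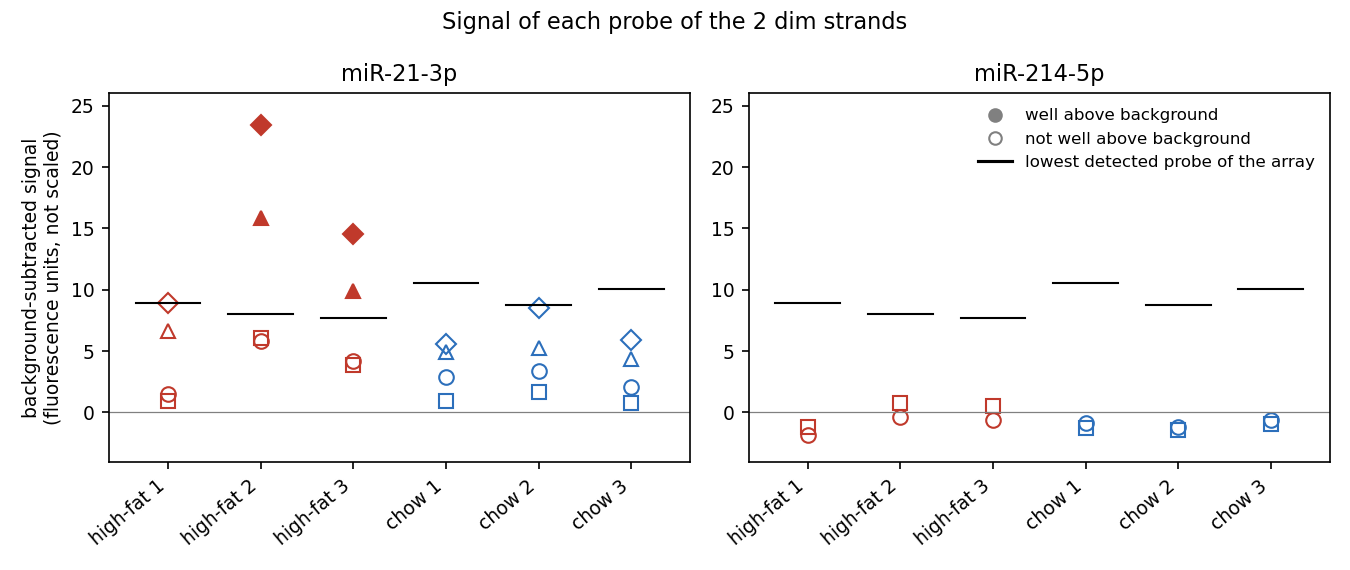
Signal of each probe of miR-21-3p (left, 4 probes) and miR-214-5p (right, 2 probes) on each array, in unscaled fluorescence units, with high-fat arrays in red and chow arrays in blue. Filled symbols are well above background, symbol shapes tell probes apart, and black lines mark the lowest signal of any probe that was well above background on that array. miR-21-3p reaches 23.5 on high-fat replicate 2, and both probes of miR-214-5p stay near 0.

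miR-214-5p, the other annotated strand of miR-214, was not well above background on any of the 6 arrays. As its sequence does not lie opposite miR-214-3p in the hairpin, this is not taken as the level of the strand that pairs with miR-214-3p. Its 2 probes ranged from -1.84 to 0.743 fluorescence units, and the first gave -1.84, -0.39 and -0.62 fluorescence units on high-fat replicates 1, 2 and 3 and -0.88, -1.17 and -0.59 on chow replicates 1, 2 and 3. Signals below 0 arise when the subtracted background exceeds the spot. With both diets at background, no fold change can be given for this strand, and its level was not detectable at this signal.

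miR-199a-5p differed little between the diets apart from high-fat replicate 2. The brighter of its 2 probes gave 935, 1487 and 1270.2 fluorescence units on high-fat replicates 1, 2 and 3, against 775, 954 and 831 on chow replicates 1, 2 and 3. After scaling the log2 signals were 1.17, 1.48 and 1.18 on the high-fat diet and 1.11, 1.17 and 1.14 on chow. All high-fat arrays were above all chow arrays, but replicate 1 on the high-fat diet and replicate 2 on chow were nearly equal.

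The mean scaled log2 signal of miR-199a-5p was 1.28 ± 0.18 with the high-fat diet and 1.14 ± 0.03 with chow (SD over 3 arrays each). Its log2 difference was 0.14 ± 0.11 SE, with a 95% interval of -0.13 to 0.41 (limma adjusted p = 0.664). Without high-fat replicate 2 the difference of miR-199a-5p was 0.04 (limma adjusted p = 0.898). The 2 probes disagreed: the second gave -0.01 ± 0.10 SE, with scaled log2 signals of -0.09, -0.03 and -0.25 on high-fat replicates 1, 2 and 3 and -0.10, -0.09 and -0.15 on chow replicates 1, 2 and 3, which overlapped. Averaged over both probes the difference of miR-199a-5p was 0.06 (limma adjusted p = 0.834). With slide as a block it was 0.17 (limma adjusted p = 0.724 for that fit), and the difference within slide 1 was the same.

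miR-199a-3p, the other strand of the same hairpin, was, after scaling, lower on high-fat replicate 2 than on any other array. Before scaling that array was above the chow arrays and lowest among the high-fat arrays. Its brighter probe gave 4049, 3979 and 5335 fluorescence units on high-fat replicates 1, 2 and 3, against 3464, 3915 and 3712 on chow replicates 1, 2 and 3. The scaled log2 signals were 3.29, 2.90 and 3.25 on the high-fat diet and 3.27, 3.21 and 3.30 on chow. Apart from replicate 2, the high-fat arrays lay within the range of the chow arrays.

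The scaled log2 signal of miR-199a-3p averaged 3.15 ± 0.21 with the high-fat diet and 3.26 ± 0.05 with chow (SD, n = 3 each). The log2 difference was -0.11 ± 0.13 SE, with a 95% interval of -0.41 to 0.18 (limma adjusted p = 0.772). The second probe gave -0.11 ± 0.13 SE as well. Without high-fat replicate 2 the sign turned, at a difference of 0.01 (limma adjusted p = 0.984). With slide as a block the value was -0.12 (limma adjusted p = 0.819 for that fit), and the difference within slide 1 was the same.

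miR-214-3p, the bright strand of miR-214, stood out on high-fat replicate 2 in the same way as miR-199a-5p. Its brighter probe gave 246, 466 and 358 fluorescence units on high-fat replicates 1, 2 and 3, against 233, 262 and 249 on chow replicates 1, 2 and 3. After scaling the log2 signals were -0.76, -0.19 and -0.65 on the high-fat diet and -0.62, -0.69 and -0.60 on chow. High-fat replicate 1 was the lowest of all 6 arrays and high-fat replicate 2 the highest, so the diets overlapped.

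On average the scaled log2 signal of miR-214-3p was -0.53 ± 0.30 with the high-fat diet and -0.64 ± 0.05 with chow (SD, n = 3 each). Its log2 difference was 0.11 ± 0.15 SE, with a 95% interval of -0.26 to 0.47 (limma adjusted p = 0.825). The second probe gave 0.12 ± 0.15 SE. Without high-fat replicate 2 the difference of miR-214-3p was -0.07 (limma adjusted p = 0.854). With slide as a block it was 0.09 (limma adjusted p = 0.879 for that fit), and the difference within slide 1 was the same.

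**Figure D3:**
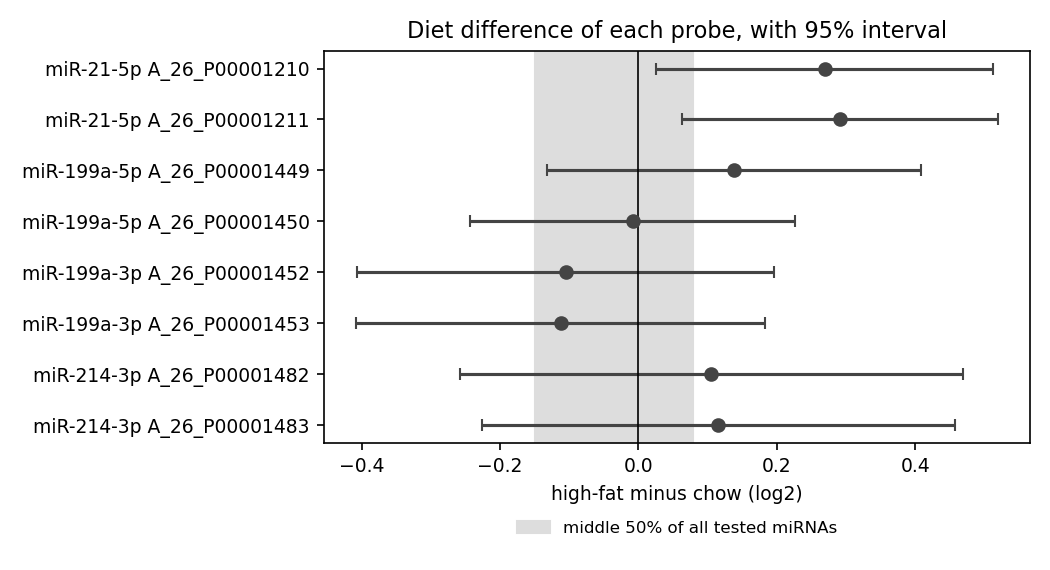
Log2 difference, high-fat minus chow, of each of the 8 probes of the 4 tested strands, with its 95% interval from limma over all 865 tested probes. The grey band spans the middle 50% of the log2 differences of all 425 tested miRNAs, from -0.15 to 0.08. Both probes of miR-21-5p have intervals above 0 before adjustment, and the 2 probes of miR-199a-5p differ from each other.

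Fitted probe by probe over 865 probes, 0 of the 8 probes passed the adjusted limma test, where 0% of all tested probes passed as higher and 0.231% as lower on the high-fat diet. The unadjusted p was under 0.05 for both probes of miR-21-5p, at 0.0347 and 0.019, with adjusted p of 0.464 and 0.361, where 4.28% of all tested probes were higher at that level and 6.13% lower. Spots of 1 probe on 1 array agreed within a coefficient of variation of 0.497% to 15.4% over these 8 probes, and 5 to 8 spots entered each mean. The median log2 difference of all 425 miRNAs was -0.04.

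On high-fat replicate 2 the strands of miR-199a, by their brighter probes, lay on opposite sides of their usual levels. The second probe of miR-199a-5p moved less, with a scaled log2 signal of -0.03 on that array and -0.25 to -0.09 on the others. The offset between 2 probes says nothing of which strand is more abundant, since probes bind with different strength. Its difference between arrays is free of that only where the arrays were hybridised alike. The stringency ratio was lowest on high-fat replicate 2, at 0.974, and its part in the offset was not tested. The 5p minus 3p log2 offset of miR-199a was -2.11, -1.42 and -2.07 on high-fat replicates 1, 2 and 3 and -2.16, -2.04 and -2.16 on chow replicates 1, 2 and 3. By the brighter probes, high-fat replicate 2 was thus the one array with a shifted offset.

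The offset of miR-199a averaged -1.87 ± 0.39 with the high-fat diet and -2.12 ± 0.07 with chow (SD, n = 3 each), a difference of 0.25 ± 0.20 SE (limma adjusted p = 0.693 over 102 miRNAs with both strands tested, of which 0% passed as higher and 0% as lower). At an unadjusted p under 0.05 there were 5 such offsets higher (4.9%) and 4 lower (3.92%) with the high-fat diet, and that of miR-199a was not among them. Without high-fat replicate 2 the difference for miR-199a was 0.03 (limma adjusted p = 0.981). With the mean over the probes of each strand it was 0.17 (limma adjusted p = 0.819). For miR-21 and miR-214 no such test was made, since their other annotated strand was well above background on fewer than 3 arrays.

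**Figure D4:**
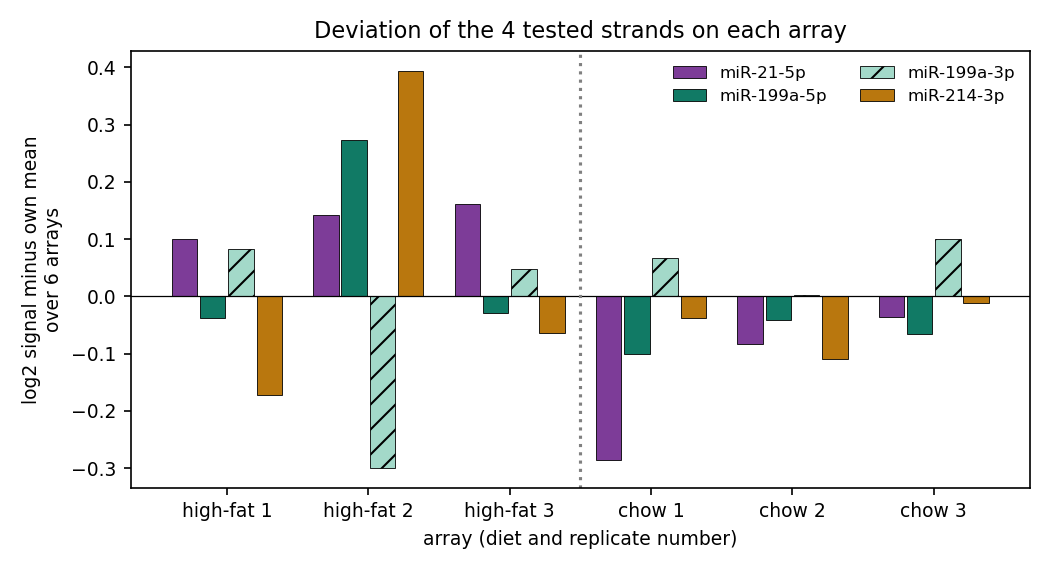
Scaled log2 signal of each tested strand on each array minus that strand's own mean over the 6 arrays, with high-fat arrays left and chow arrays right of the dotted line. On high-fat replicate 2 miR-199a-5p and miR-214-3p lie above their means and miR-199a-3p below its mean. For miR-21-5p all high-fat bars are above 0 and all chow bars below it.

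High-fat replicate 2 differed from the mean of the other high-fat arrays by 0.51 for miR-214-3p, 0.31 for miR-199a-5p, -0.37 for miR-199a-3p and 0.01 for miR-21-5p (scaled log2 signal). Deviations at least as large in either direction were seen on that array for 6.59% of the 425 miRNAs in the case of miR-214-3p, 19.5% for miR-199a-5p, 14.6% for miR-199a-3p and 97.6% for miR-21-5p. Over all miRNAs the median absolute deviation was 0.13 on each of the 3 high-fat arrays and 0.13 to 0.15 on the chow arrays. By that measure high-fat replicate 2 did not lie further from its group than the other arrays did.

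The profile over the 6 arrays was set against that of every tested miRNA, after each was centred on its own mean, by the mean absolute difference on the log2 scale. The profiles most like miR-21-5p were those of miR-218a-5p (0.05), miR-186-5p (0.06) and miR-128-3p (0.06), against a median of 0.20 over all others. miR-214-3p was closest to miR-1843a-5p (0.06), then to its neighbour miR-199a-5p (0.08) and to miR-30a-3p (0.08), against a median of 0.21. For miR-199a-5p the closest were miR-30a-3p (0.04), miR-30c-2-3p (0.05) and miR-93-5p (0.06), against a median of 0.17.

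The other strand of that hairpin had a different profile. miR-199a-3p was closest to miR-340-5p (0.03), miR-100-5p (0.04) and let-7g-5p (0.05), against a median of 0.16. Its distance to miR-199a-5p was 0.19 and to miR-214-3p 0.23, both above that median, although all are annotated in the Mir199a2 and Mir214 neighbourhood. From which locus the signals came was not tested. Between miR-21-5p and miR-199a-5p the distance was 0.12. These are descriptions over 6 arrays that share their scaling.

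Other miRNAs reported to promote cardiac fibrosis or to rise in it were on the array for 11 of 11 listed, and 9 were tested. None passed over all miRNAs (0 of 9 by limma). At an unadjusted p under 0.05 there was 1 of the 9, on the higher side, where 4.24% of all tested miRNAs were higher at that level, and the diets' arrays did not overlap for 1 higher and 1 lower, as for 6.59% and 10.6% of all. Their median log2 difference was -0.04, with 4 above and 5 below 0, beside a median of -0.04 over all 425, with 167 above and 258 below 0. miR-34a-5p, a target of p53 that promotes cardiac ageing, had a log2 difference of 0.63 ± 0.15 SE (limma adjusted p = 0.192). Next by p were miR-223-3p, a myeloid miRNA, at 0.25 ± 0.13 SE (0.456) and miR-503-5p at 0.24 ± 0.13 SE (0.478). The untested members of this list, miR-433-3p and miR-154-5p, were well above background on 0 arrays.

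Of 16 miRNAs reported to restrain cardiac fibrosis, 15 were found on the array and all 15 were tested. None passed over all miRNAs (0 of 15 by limma), and 3 of the 15 were lower at an unadjusted p under 0.05, where 7.53% of all tested miRNAs were. Their median log2 difference was -0.04, equal to that of all 425, with 4 above and 11 below 0, beside 167 above and 258 below 0 of all. The 3 with the smallest p were on the lower side: miR-133a-3p and miR-133b-3p, muscle miRNAs that lower connective tissue growth factor, at -0.37 ± 0.11 and -0.43 ± 0.15 SE (limma adjusted p = 0.279 and 0.326), and miR-30c-5p, which lowers the same factor, at -0.28 ± 0.12 SE (0.412). The miR-133 strands are also among the cardiomyocyte miRNAs, whose sums are given above. The miR-29 family, which lowers collagen messages, gave -0.06 for miR-29a-3p, -0.02 for miR-29b-3p and -0.08 for miR-29c-3p. The diets' arrays did not overlap for 2 of these 15, both lower on the high-fat diet, where 10.6% of all tested miRNAs were in that state.

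Without any scaling between arrays the log2 differences were 0.64 for miR-21-5p, 0.51 for miR-199a-5p, 0.26 for miR-199a-3p and 0.47 for miR-214-3p, beside a median over all tested miRNAs of 0.32. The difference of miR-199a-3p thus changed sign with the scaling, and it lay below that median in both. In the authors' deposited table, miR-21-5p has the same log2 value of 11.92 on all 3 high-fat arrays and 11.56, 11.60 and 11.79 on chow replicates 1, 2 and 3. That value also stands for miR-199a-3p on chow replicate 3, so equal values there need not be equal measurements. The high-fat arrays thus add no spread to a test of miR-21-5p on that table. Tested on that table, miR-21-5p differed by 0.27 (limma adjusted p = 0.368).

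**Figure D5:**
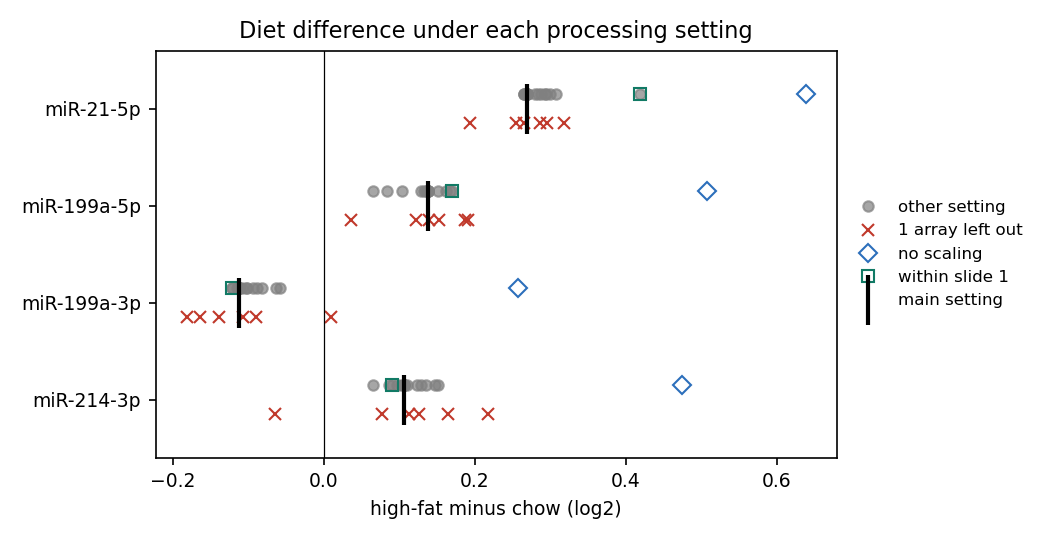
Log2 difference, high-fat minus chow, of each tested strand under each processing setting. The black bar is the setting reported above, grey circles are other settings, red crosses leave out 1 array, the blue diamond has no scaling between arrays and the green square is the comparison within slide 1. miR-21-5p lies above 0 in every setting run, from 0.19 to 0.64, while miR-199a-3p and miR-214-3p cross 0.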

How the data were processed

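Cy3-labelled total RNA of each of the 6 samples went on an Agilent miRNA array of its own, per the labels' protocols. The deposited files hold fluorescence intensity per spot, background-subtracted for each array by Agilent Feature Extraction 11.0.1.1, a version the file headers give. The authors' deposited value table holds log2 values whose columns share their median of 3.54; how it was made is not given in the sources used here, and it ranks miRNAs as the software's total signal does. Each array had 12128 spots for 1806 probes, 0 of them saturated. The software's outlier flags removed 9.07% to 9.42% of spots.

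The remaining spots of a probe were averaged. Arrays were divided by the 75th percentile over 757 probes that were detected on every array (at least 50% of a probe's spots well above background), floored at the 1st percentile of detected signals (log2 -5.82) and put on the log2 scale. A miRNA took its brightest probe and was tested when that was well above background on at least 3 arrays. limma 3.58.1 in R 4.3.3 (lmFit, eBayes) compared the diets without a covariate, with Benjamini-Hochberg adjustment and a threshold of 0.05. The same fit was run on probes and on strand offsets, and was tested on simulated data. Names follow the array design, and 6 of 6 members matched RefSeq sequences. Named besides the members are the 3 miRNAs with the smallest p of each fibrosis list and the 3 most alike profiles per member; cell type markers are given by their sums, and the miR-29 family, miR-122-5p, miR-141-3p, 3 strands of the miR-200 family, miR-433-3p and miR-154-5p were picked with their values known. The members, lists and alternatives were chosen with earlier results of these data known. The number of arrays limits the precision.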

Additional observations from a re-analysis of the deposited data

How the results depend on the processing

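With 24 alternatives each, miR-21-5p, miR-199a-5p and the strand offset of miR-199a kept their direction and stayed short of the threshold, at 0.19 to 0.64, 0.04 to 0.51 and 0.03 to 0.37 on the log2 scale. miR-199a-3p turned positive without scaling (0.26) and without high-fat replicate 2 (0.0094), and was -0.18 to 0.0094 with 1 array left out. miR-214-3p turned negative without high-fat replicate 2 (-0.065), and was -0.065 to 0.22 with 1 array left out. The cause was not tested. 0 members passed in any alternative, with limma adjusted p of 0.132 to 0.801 for miR-21-5p, 0.200 to 0.994 for miR-199a-5p, 0.366 to 1 for miR-199a-3p, 0.229 to 1 for miR-214-3p and 0.551 to 0.981 for the offset. Over all miRNAs, where 2 passed, 8 did with normexp and the 75th percentile (which moved the median difference to -0.14), 5 without scaling, 1 with outlier spots kept, and 0 with quantile normalisation, no filter, a floor 4 times higher, slide as a block, within slide 1 (1 chow array, so with the spread of the high-fat arrays only) or the authors' value table, which was added after seeing the data (51, 51, 39, 49, 54 and 45 at an unadjusted limma p under 0.05, against 50 in the setting reported). With 1 array left out 0 to 3 passed, and of the strand offsets 0 to 1, the 1 being that of miR-18a without chow replicate 2. With the replicate number as a block, miR-21-5p differed by 0.27 (limma adjusted p = 0.476), miR-199a-5p by 0.14, miR-199a-3p by -0.11, miR-214-3p by 0.11 and the strand offset by 0.25, and 3 miRNAs passed, 0 of them members. Same-numbered arrays of the diets had residual correlations of 0.22, -0.01 and 0.06, so the numbers were not taken to pair samples, and not every array correlated best with its own number. Dim signals limit miR-21-3p and miR-214-5p.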
